A study of Homo sapiens with 3 samples.

Results

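Transcription factors that pattern the embryonic kidney were examined in HEK293T, an established line derived from human embryonic kidney and immortalised with viral genes. The set holds 8 genes, PAX2, PAX8, LHX1, SIX2, EYA1, SALL1, WT1 and GATA3, chosen for their known part in kidney development and taken from the rows that lie on assembled chromosomes, out of 67008 gene models. Poly(A)-selected RNA was sequenced in bulk from cells infected with lentivirus, with a labelled time of 72 hours. The DDX24 knockdown libraries numbered 2, each made with 1 short hairpin RNA in the pLKO.1 vector (shDDX24-1, here hairpin 1, and shDDX24-2, here hairpin 2), and the control was 1 library of cells given the pLKO.1 vector, with the genotype WT. Lentiviral infection was common to all 3 libraries, and the protocol gives 5 particles per cell and 8 µg/mL polybrene. DDX24, the helicase targeted by the hairpins, had 0 counts in the control as well as with both hairpins, so it could not serve to check the knockdown or the labels. DDX24 also has a copy on an alternate scaffold, likewise at 0, so its 0 is no measure of its expression. The labels do not say whether the libraries came from separate cultures. The p-values therefore describe the spread between these libraries alone, which may be technical.

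In the embryo, PAX2 and PAX8, paired-box factors, set up the intermediate mesoderm from which the kidney forms, and LHX1, a LIM homeobox factor, acts with them there and again in the early nephron. SIX2 keeps the nephron progenitors of the cap mesenchyme from differentiating. EYA1 is a phosphatase and coactivator that binds SIX2, and SALL1 is a zinc finger repressor of the same progenitors. WT1, a zinc finger factor, is needed for the survival of the mesenchyme and later for podocytes, the filtering cells of the glomerulus. GATA3 is a zinc finger factor of the ureteric bud, the outgrowth that becomes the collecting ducts.

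SIX2, the member with the highest level per length, is shown with PAX2 and PAX8, a pair of paralogues near the bottom of the order. The 250 bases upstream of the RefSeq transcription start (GRCh38.p14) are printed 5′ to 3′ on the strand of the gene, with GC boxes (GGGCGG on either strand) in capitals. The window lies at chr2:45009453-45009702 (minus strand) for SIX2, at chr10:100735146-100735395 (plus strand) for PAX2 and at chr2:113278922-113279171 (minus strand) for PAX8.
SIX2: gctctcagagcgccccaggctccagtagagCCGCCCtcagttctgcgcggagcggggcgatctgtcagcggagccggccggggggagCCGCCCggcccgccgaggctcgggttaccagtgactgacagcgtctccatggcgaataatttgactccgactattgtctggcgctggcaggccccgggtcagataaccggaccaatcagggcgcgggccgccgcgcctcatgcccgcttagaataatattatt
PAX2: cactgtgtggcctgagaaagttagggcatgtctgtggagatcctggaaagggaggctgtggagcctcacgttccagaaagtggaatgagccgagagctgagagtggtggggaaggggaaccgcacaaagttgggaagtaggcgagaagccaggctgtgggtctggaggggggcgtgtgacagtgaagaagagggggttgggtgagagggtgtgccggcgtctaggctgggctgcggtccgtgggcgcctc
PAX8: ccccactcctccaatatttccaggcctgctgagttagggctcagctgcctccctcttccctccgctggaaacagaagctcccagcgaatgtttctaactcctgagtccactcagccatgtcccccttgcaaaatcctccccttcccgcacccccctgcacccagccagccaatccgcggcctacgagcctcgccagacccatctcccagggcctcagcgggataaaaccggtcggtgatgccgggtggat
The SIX2 window held 26 CG dinucleotides at a GC content of 65.6%, the PAX2 window 10 at 61.6% and the PAX8 window 11 at 61.6%. The median of 35116 RefSeq promoters of this length was 11 CG dinucleotides at a GC content of 58.0%. A GC box was found 2 times in the SIX2 window and 0 times in those of PAX2 and PAX8, against 42.6% of all promoters with at least 1. The CCAAT box (CCAAT on either strand) was found 2 times for PAX8, 1 time for SIX2 and 0 times for PAX2, with at least 1 in 32.0% of all promoters. Of the other members, WT1 had 19 CG dinucleotides and GATA3 had 11, at the start nearest to the deposited gene model. LHX1, EYA1 and SALL1 were not among the promoters used. These matches are a description of the letters only.

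The deposited gene models are on GRCh38. SIX2 (chr2:45005182-45009452), PAX8 (chr2:113215997-113278921), EYA1 (chr8:71197433-71592025), SALL1 (chr16:51135975-51151367) and WT1 (chr11:32387775-32435885) lie on the minus strand. PAX2 (chr10:100735603-100829941), GATA3 (chr10:8045378-8075198) and LHX1 (chr17:36936785-36944612) lie on the plus strand. Counts are given per gene, so no isoform is resolved.

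The line had a clear order of levels among the 8 factors. Levels are given in CPM (the count of a gene relative to the effective size of its library), and levels of different genes are compared only as CPM per kilobase of the longest coding transcript. SIX2 led with 14.6 and 19.4 CPM per kilobase with hairpin 1 and hairpin 2, against 15.3 in the control. SALL1 followed at 9.12 and 8.27, against 9.11 in the control. WT1 was at 4.62 and 4.31 against 4.21 in the control, and EYA1 was at 3.50 and 4.83 against 3.58 in the control. GATA3 had 1.96 and 2.31 CPM per kilobase with the hairpins and 2.20 in the control. PAX2 was at 0.359 and 0.410 against 0.306 in the control. The ranges of neighbours in this order did not overlap, except those of WT1 and EYA1, whose order differed between libraries. With the union of all exons as the length, SIX2, SALL1, PAX2, LHX1 and PAX8 held the same places. GATA3 then stood above EYA1 with hairpin 1 and in the control, and WT1 stood above EYA1 with hairpin 2.

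**Figure D1:**
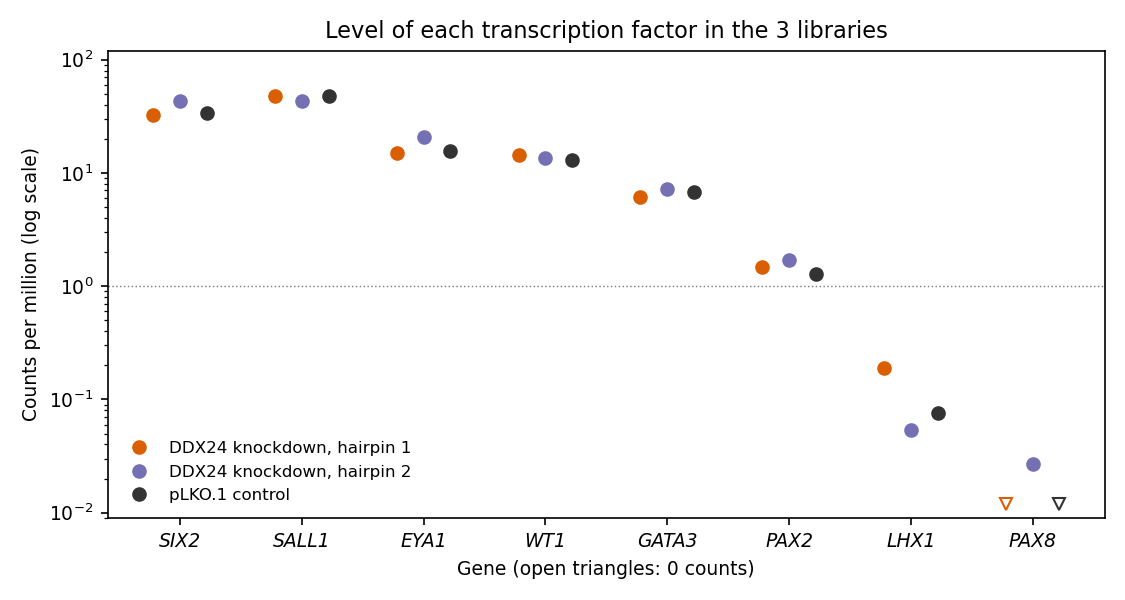
Level of each factor in CPM (y axis, log scale) in the knockdown libraries of hairpin 1 and hairpin 2 and in the pLKO.1 control, 1 point per library, with open triangles for 0 counts and a dotted line at 1 CPM. In each library 6 of the 8 factors lay above 1 CPM, and LHX1 and PAX8 lay below it.

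Depth differed between the libraries, which held 36738685 counts with hairpin 1 and 37828270 with hairpin 2, against 52198744 in the control. Mitochondrial genes took 4.21% and 3.80% of counts with the hairpins, against 3.51% in the control. Of the 8 factors, 6 passed the filter on low counts and were tested, and LHX1 and PAX8 did not. A total of 17713 genes were tested for a difference between knockdown and control with edgeR's quasi-likelihood test. None of the 6 passed at an adjusted p of 0.05 over all genes, where 0.0113% of all genes were called, each of them lower. None had an unadjusted p under 0.05, against 3.9% of all genes. DESeq2 and limma-voom also called 0 of the 6. The median log2 fold change of the 6 was 0.12, against 0.01 over all genes tested. The test has 1 residual degree of freedom, given by the difference between the hairpins, and the lone control is assumed to vary likewise. In edgeR the variance of each gene is also moderated with that of all genes tested. This gave 6.67 degrees of freedom for each of the 6. Their edgeR p-values and the intervals of their log2 fold changes therefore draw on the spread of other genes in these same libraries too.

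SIX2 was counted 1190 times with hairpin 1 and 1590 times with hairpin 2, against 1781 times in the deeper control. This came to 32.2 CPM with hairpin 1 and 42.9 with hairpin 2, against 33.7 in the control. Hairpin 2 was thus the high library, and the control lay between the hairpin libraries. SIX2 averaged 37.5 ± 7.54 CPM in the knockdown (SD, n = 2), and its log2 fold change was 0.15 ± 0.20 (SE; 95% interval -0.32 to 0.63; edgeR adjusted p = 0.999). EYA1, the coactivator that binds SIX2, reached 15.2 CPM under hairpin 1 and 20.9 CPM under hairpin 2, against 15.5 in the control. Again hairpin 2 was the high library, and hairpin 1 was close to the control. The log2 fold change of EYA1 was 0.22 ± 0.23 (95% interval -0.33 to 0.77; edgeR adjusted p = 0.999). SALL1 reached 47.9 CPM under hairpin 1 and 43.4 CPM under hairpin 2, against 47.9 in the control, so that hairpin 2 was the low library. Its log2 fold change was -0.07 ± 0.14 (95% interval -0.41 to 0.28; edgeR adjusted p = 0.999).

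WT1 was counted 533 times with hairpin 1 and 499 times with hairpin 2, against 694 times in the control. In CPM it was at 14.4 and 13.4, against 13.1 in the control. Both hairpin libraries lay slightly above the control, with a log2 fold change of 0.08 ± 0.18 (SE; 95% interval -0.35 to 0.52; edgeR adjusted p = 0.999). GATA3 reached 6.11 CPM under hairpin 1 and 7.22 CPM under hairpin 2, against 6.86 in the control, which lay between them. The log2 fold change of GATA3 was -0.04 ± 0.23 (95% interval -0.59 to 0.51; edgeR adjusted p = 0.999). PAX2, with 55 and 63 counts with the hairpins and 67 in the control, was at 1.49 and 1.70 CPM, against 1.27 CPM in the control. Both hairpin libraries were above the control, and at these counts the log2 fold change of 0.33 ± 0.32 had the widest interval of the 6, -0.44 to 1.09 (edgeR adjusted p = 0.999). In all, both hairpin libraries lay above the control for 2 of the 6 factors, WT1 and PAX2, where 31.9% of all genes tested did so. Both lay below it for 0 of the 6, against 32% of all genes, and the control lay between them for 4 of the 6, against 36.1%.

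**Figure D2:**
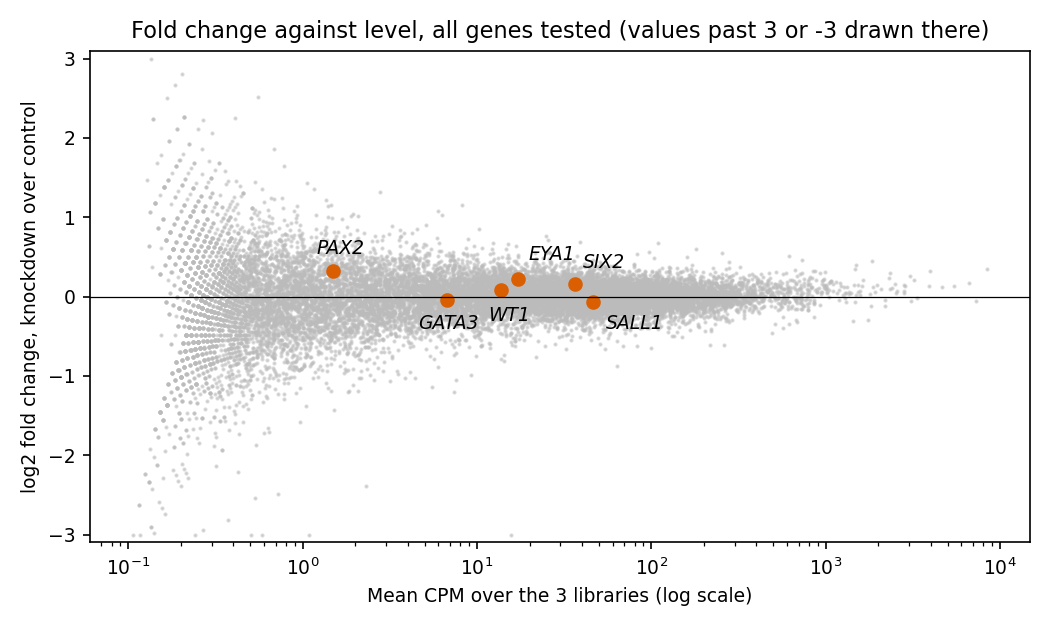
Log2 fold change of the knockdown over the control (y axis) against the mean CPM over the 3 libraries (x axis, log scale), with 1 grey point for each of 17713 genes tested (values past 3 or -3 drawn there) and the 6 tested factors in orange. The factors lay between -0.07 and 0.33, inside the cloud of genes at their level.

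SIX2, EYA1 and SALL1 had counting intervals off 0 with hairpin 2 and not with hairpin 1. The share of the factors with such an interval under hairpin 2 was near that of all genes. The log2 ratio of hairpin 2 to the control was 0.35 for SIX2 (exact Clopper-Pearson interval 0.25 to 0.44 at 95%) and 0.43 for EYA1 (0.29 to 0.58), and -0.14 for SALL1 (-0.23 to -0.05). Such intervals cover counting error only, not the spread between replicates. With hairpin 1 the ratios to the control were -0.07 for SIX2 (-0.17 to 0.04), -0.03 for EYA1 (-0.19 to 0.13) and 0.00 for SALL1 (-0.09 to 0.09). Hence 2 of the 6 factors had an interval above 0 with hairpin 2, where 23.8% of all genes tested had one, and 1 of the 6 had one below 0, against 21.5%. With hairpin 1 none of the 6 had an interval off 0, where 20.5% of all genes had one above 0 and 19.8% one below 0. Intervals of both hairpins above 0 were found for 0 of the 6, against 10.2% of all genes, and both below 0 for 0 of the 6, against 9.13%. Hairpin 1 and hairpin 2 share the control library in these ratios.

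Between the hairpin libraries, which share no control, the log2 ratio of hairpin 2 to hairpin 1 was 0.41 for SIX2 (counting interval 0.30 to 0.52) and 0.46 for EYA1 (0.30 to 0.62). For SALL1 it was -0.14 (-0.24 to -0.04). The intervals of GATA3 (-0.02 to 0.50), PAX2 (-0.35 to 0.74) and WT1 (-0.28 to 0.08) included 0. An interval above 0 was found for 22.5% of all genes tested and one below 0 for 20.1%, against 2 and 1 of the 6 factors. None of the 6 differed by 1.5-fold between the hairpins, where 1.48% of 14099 genes at 1 CPM or more were higher with hairpin 2 and 5.04% were lower. None was past 1.5-fold on the same side of the control with both hairpins, where 0.433% of those genes were higher and 0.872% were lower. The hairpins are 1 library each, so the difference between them has no replicate check.

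**Figure D3:**
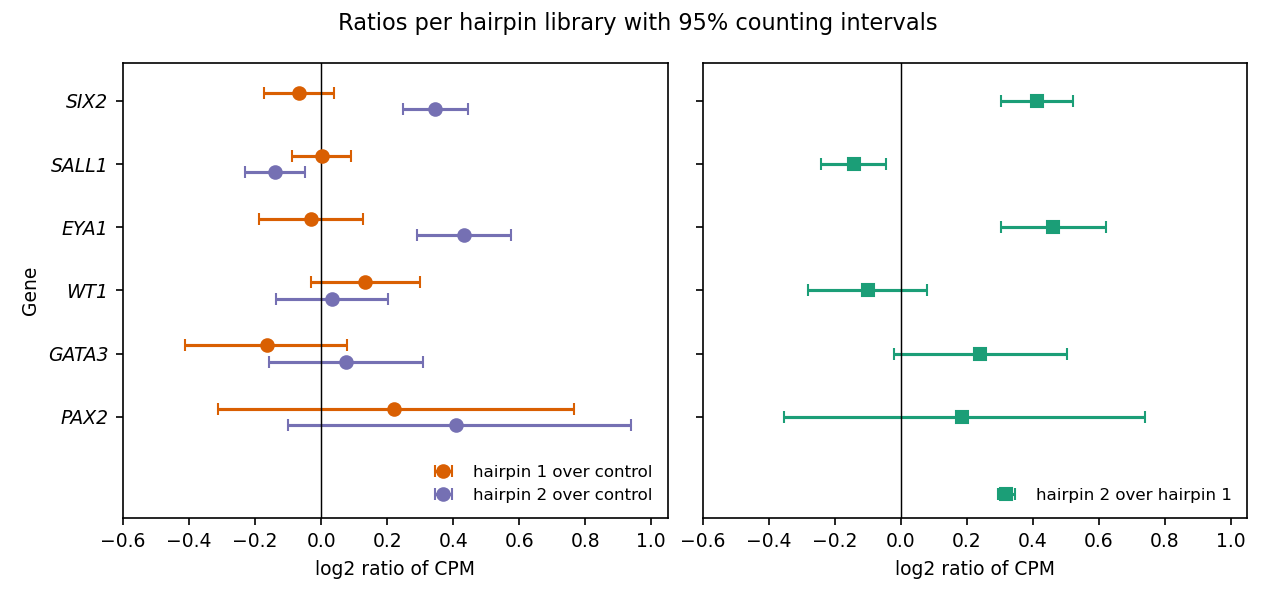
Log2 ratios of CPM (x axes) for the 6 tested factors, at left for hairpin 1 and hairpin 2 over the pLKO.1 control and at right for hairpin 2 over hairpin 1, with bars for the 95% counting interval. SIX2 and EYA1 lay at 0.35 and 0.43 with hairpin 2 and SALL1 at -0.14, while all bars of hairpin 1 crossed 0.

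The summed level of 15 markers of neurons and chromaffin cells was highest with hairpin 2, as the levels of SIX2 and EYA1 were. The sum was 124 and 178 CPM with hairpin 1 and hairpin 2, against 129 CPM in the control. INA, a filament gene, alone was at 57.8 and 91.5 CPM with the hairpins, against 78.4 CPM in the control. NEFH had 10 and 6 counts with the hairpins and 10 in the control, so not every marker was highest with hairpin 2. The lists of differentiated tubule markers and of kidney target genes, described below, also had their highest sums with hairpin 2. At 1 CPM or more were 5 of the 15 (33.3%), against 60.2% of protein-coding genes on chromosomes. The 5 were the filament genes INA, NEFM and NEFL, the synaptic vesicle gene SYP and STMN2, a stathmin. The defining chromaffin and sympathetic genes PHOX2A and DBH were at 0 in all 3 libraries. CHGA was at 0 as well but has a scaffold copy, so its 0 is no measure of its expression. CHGB had 7 and 27 counts with the hairpins, against 22 in the control. The part of these markers in the ratios of SIX2 and EYA1 was not tested. None of the 7 neuronal markers tested passed. SYP (log2 fold change 0.76) and NEFM (0.56), 2 of the 7, had an unadjusted edgeR p under 0.05, against 3.9% of all genes tested.

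PAX8 and LHX1 were at or close to the limit of detection on their chromosomes. PAX8 had 0 counts with hairpin 1 and 1 with hairpin 2, against 0 in the control. By counting error alone, a count of 0 allows up to 0.0812 CPM with hairpin 1 and 0.0568 CPM in the control (3 counts per library). PAX8 was not detected above that floor. The antisense gene PAX8-AS1, which overlaps PAX8 on the opposite strand, had 4 and 3 counts with the hairpins and 15 in the control. How reads in this overlap were counted is not given, and the floor does not cover reads lost there. LHX1 on chromosome 17 had 7 and 2 counts with the hairpins, against 4 in the control. A copy of LHX1 is annotated on the alternate scaffold KI270857.1, outside the rule used here, and held 19 and 30 counts with the hairpins, against 17 in the control. That scaffold row therefore carried 73.1% and 93.8% of all LHX1 counts with hairpin 1 and hairpin 2, against 81.0% in the control. The chromosome row alone is thus no measure of LHX1 expression. Summed over both rows LHX1 was at 0.703 and 0.863 CPM with the hairpins, against 0.398 CPM in the control. Both hairpin libraries were then above the control, with a log2 fold change of 0.97 ± 0.40 (SE; unadjusted p = 0.0485; edgeR adjusted p = 0.999 over 17660 genes), which did not pass. This sum was added after the data were seen.

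Genes that lie across or beside the other factors were at few counts. AL390294.1, which overlaps GATA3 on its own strand, had 2 or 3 counts in each library, and LHX1-DT, which starts beside LHX1, had 1 to 3. AATF, a protein-coding gene beside LHX1 on the same strand, was at 0 in all 3 libraries. AC243773.1, which overlaps LHX1 on the opposite strand, was at 0 as well. Only rows on the chromosome of each factor were searched for such genes, so scaffold copies of them were not examined. WT1-AS, on the strand opposite to WT1, was at 1.03 and 0.674 CPM with hairpin 1 and hairpin 2, against 0.568 CPM in the control. GATA3-AS1 had 2 and 0 counts with the hairpins and 3 in the control. AC009166.1 and AC087564.1, opposite to SALL1, had 4 to 6 counts in each library. AC022858.1 and AC015687.1, opposite to EYA1, and the pseudogene TRAPPC2P2 inside it were at 0 in all 3 libraries. No strand setting is given for the counts, so reads of a factor and of a gene opposite to it cannot be told apart.

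Each factor was then set among its paralogues, with 38 paralogues in all. Of 9 PAX genes, PAX3 and PAX6, factors of the neural tube, muscle precursors and eye, had the highest levels per kilobase, and PAX2 was the fourth. PAX3 was at 5.35 and 5.41 CPM per kilobase with the hairpins, against 4.47 in the control, above PAX2 in every library. SIX2 had the highest level per kilobase of the 6 genes of its family. SIX4, a paralogue, was at 7.64 and 8.56 CPM per kilobase with the hairpins, against 7.48 in the control, and SIX5 was at 4.57 and 5.23, against 4.27. EYA1 was the third of 4 EYA genes. EYA3 led them with 19.1 and 17.5 CPM per kilobase against 18.1 in the control, and EYA4 was at 16.8 and 15.9 against 14.7. SALL2 stood above SALL1, at 14.1 and 11.5 CPM per kilobase against 14.7 in the control.

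WT1 was the highest among the EGR zinc finger genes, its nearest relatives, of which EGR1, an immediate early gene, came next at 0.957 and 0.842 CPM per kilobase with the hairpins, against 0.706 in the control. GATA3 was the third of 6 GATA genes. GATA2, a factor of blood progenitors and of the urogenital tract, was at 10.3 and 8.39 CPM per kilobase with the hairpins, against 9.62 in the control, and GATA6, an endoderm factor, at 4.09 and 4.48 against 3.82. LHX1 was the tenth of 12 LIM homeobox genes, led by the motor neuron factors ISL2 and ISL1. ISL2 was at 7.19 and 8.22 CPM per kilobase with the hairpins, against 6.36 in the control. Some ranks depend on rows outside the chromosomes. GATA4 had 2 and 1 counts on its chromosome with the hairpins and 1 in the control, but 190 and 234 on a scaffold copy, against 300 in the control. SALL3 was at 0 on its chromosome and had 24 and 39 counts on scaffolds with the hairpins, against 33 in the control.

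**Figure D4:**
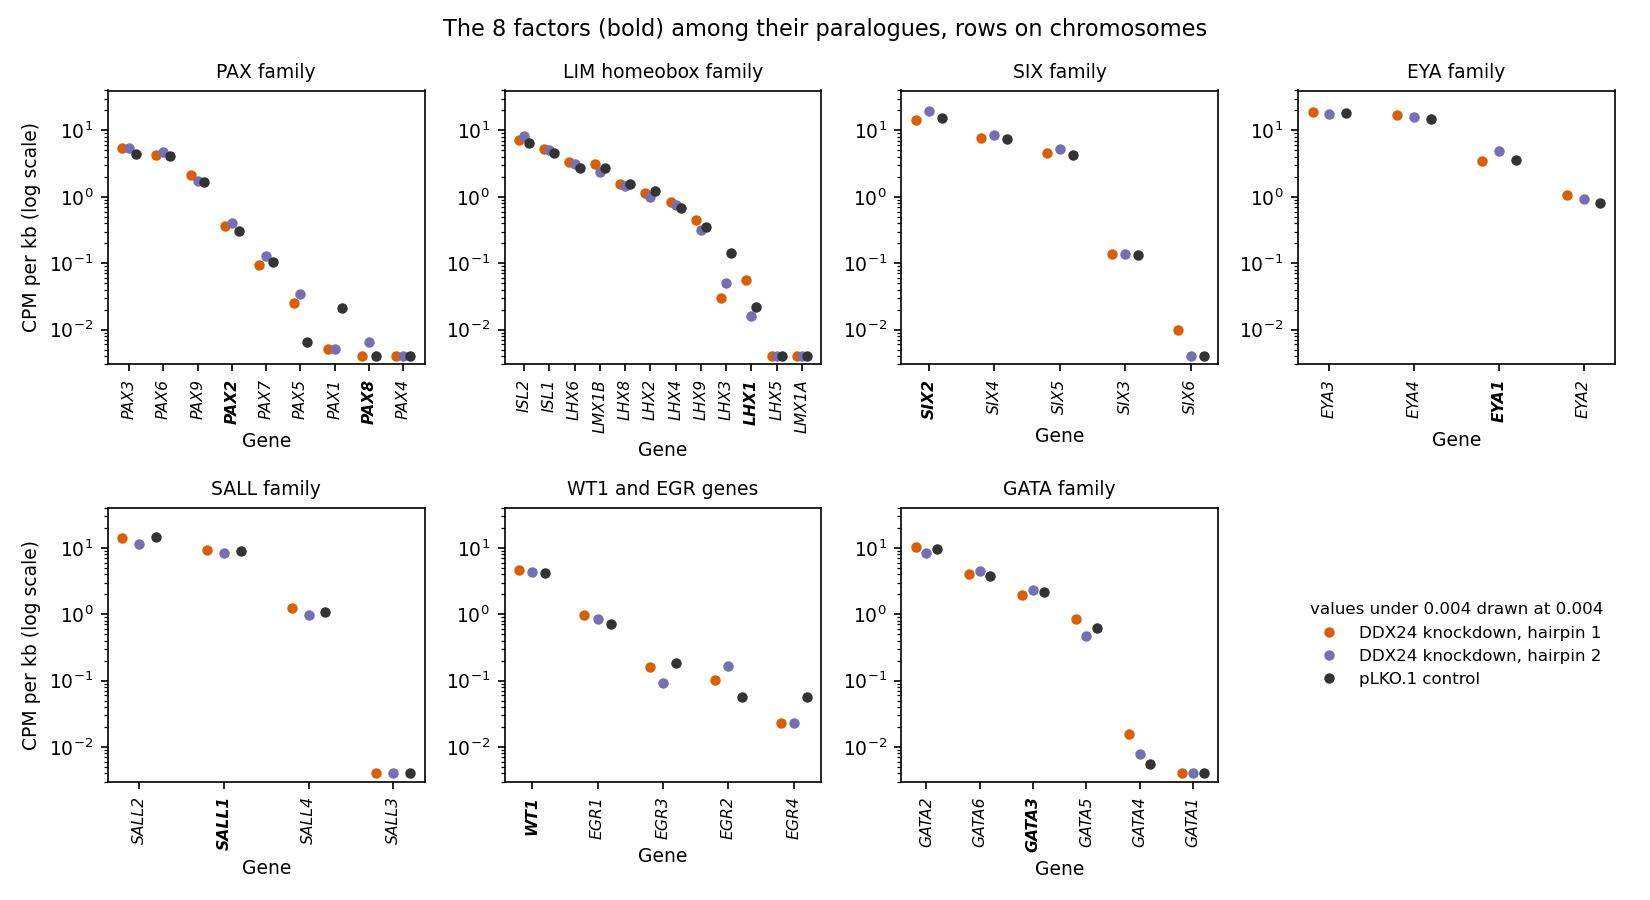
CPM per kilobase of the longest coding transcript (y axes, log scale) for the members (bold) and most of their paralogues by family, 1 point per library and rows on chromosomes only, with genes ordered by mean level and values under 0.004 drawn at 0.004. SIX2 and WT1 lead their panels, while PAX8 and LHX1 lie near the bottom of theirs; LHX1, GATA4 and SALL3 had counts on scaffold copies that are not drawn.

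Of 29 paralogues tested 0 passed edgeR in either direction and 2 had an unadjusted p under 0.05 (3.9% of all genes tested did), PAX5 (log2 fold change 2.12) and LHX3 (-1.78), each with at most 20 counts in a library. Both hairpin libraries were above the control for 17 of the 29 (58.6%, against 31.9% of all genes tested) and below it for 5 (17.2%, against 32%), with a median log2 fold change of 0.14. Set beside EYA1, with a log2 ratio of hairpin 2 to the control of 0.43 (counting interval 0.29 to 0.58), EYA4 was at 0.12 (0.05 to 0.18), EYA3 at -0.05 (-0.11 to 0.01) and EYA2 at 0.19 (-0.22 to 0.60). The interval of EYA2 overlapped that of EYA1, and those of EYA3 and EYA4 did not. In the family of SIX2, which was at 0.35 (0.25 to 0.44), SIX5 was at 0.29 (0.14 to 0.45) and SIX4 at 0.19 (0.11 to 0.28), both above 0 as SIX2 was. Whether these ratios differ between genes was not tested.

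Of 30 cofactors, 29 were at 1 CPM or more and were tested, with 0 called, 0 at an unadjusted p under 0.05 and a median log2 fold change of 0.06. Per kilobase the highest were RBBP7 and HDAC1, subunits of NuRD, the deacetylase complex that SALL1 recruits. RBBP7 was at 222 and 226 CPM per kilobase with the hairpins, against 237 in the control, and HDAC1 at 220 and 230, against 235. RBBP4, another subunit, was at 71.4 and 66.3 CPM per kilobase with the hairpins, against 75.7 in the control. RBBP7 and HDAC2 had log2 fold changes of -0.08 and -0.05. LDB1, the adaptor through which LIM homeobox factors such as LHX1 act, was at 75.2 and 79.5 CPM with the hairpins, against 71.0 CPM in the control, whereas its relative LDB2 had 0 and 1 counts, against 0 in the control. DACH1, which works with EYA proteins, had a log2 fold change of 0.25.

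Among 12 kidney genes known as targets of these factors, 7 were at 1 CPM or more, 8 were tested and 0 passed in either direction, with none at an unadjusted p under 0.05. BMP7, a growth factor that keeps nephron progenitors alive, was at 44.2 and 55.1 CPM with the hairpins, against 50.3 CPM in the control, which lay between them. GDNF, the ligand that the mesenchyme sends to the ureteric bud, had 40 and 59 counts with the hairpins, against 87 in the control. In CPM this was 1.08 and 1.59, against 1.65 in the control. Its receptor RET was at 3.03 and 1.73 CPM, against 2.56 CPM in the control. SPRY1, an inhibitor of RET signalling, had a log2 fold change of 0.22, PODXL, a podocyte sialomucin, -0.14, and WNT11, a bud tip ligand, -0.12. CDH16, a kidney cadherin, was at 0 in all 3 libraries.

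The label of the line as embryonic kidney was checked against marker lists of the kidney lineages and of other cells. Counting genes that reached 1 CPM in any library, 60.2% of protein-coding genes on chromosomes did so. Of the nephron progenitor markers 13 of 16 (81.2%) did, among them HOXA11, a homeobox factor of the metanephric mesenchyme, at 30.2 and 32.7 CPM with the hairpins, against 30.8 CPM in the control. CITED1, a coactivator that marks uncommitted cap cells, was at 1.46 and 1.78 CPM, against 1.10 CPM in the control, and OSR1 had 0 and 5 counts, against 13. CRABP2, a retinoic acid carrier, had the highest level per kilobase of this list. Of 20 early nephron markers 14 (70.0%) were at 1 CPM or more, led per kilobase by HEY1, a Notch target, and FOXC1, a forkhead factor, while WNT4, a key inducer of the nephron, had 1 and 1 counts with the hairpins, against 0 in the control. Of 17 ureteric bud markers 8 (47.1%) were at 1 CPM or more, led per kilobase by TFAP2A, SPRY1 and WNT11. CDH16, TFAP2B and AQP2 were at 0 in all 3 libraries, as was WNT9B, which has a scaffold copy.

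Markers of the differentiated tubule were mostly under 1 CPM. Of the 16, 1 (6.25%) was at 1 CPM or more, LRP2, the endocytic receptor megalin, at 23.2 and 26.5 CPM with the hairpins, against 23.7 CPM in the control. UMOD and SLC34A1, which mark the thick ascending limb and the proximal tubule, were at 0 in all 3 libraries. Of 14 podocyte markers 7 (50%) were at 1 CPM or more, among them CD2AP, LMX1B and PODXL, but NPHS1, which encodes nephrin, had 3 and 0 counts with the hairpins, against 8 in the control. The kidney stroma list had 9 of 13 (69.2%) at 1 CPM or more, with FOXD1, the defining factor of stromal progenitors, at 25.8 and 30.4 CPM with the hairpins, against 21.7 CPM in the control. The epithelial list had 5 of 6 (83.3%), led per kilobase by KRT18 and KRT8. None of the 7 adrenal cortex markers and none of the 5 endothelial markers reached 1 CPM. Each library is a bulk sample, in which fewer cells of a type and less RNA per cell cannot be told apart.

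**Figure D5:**
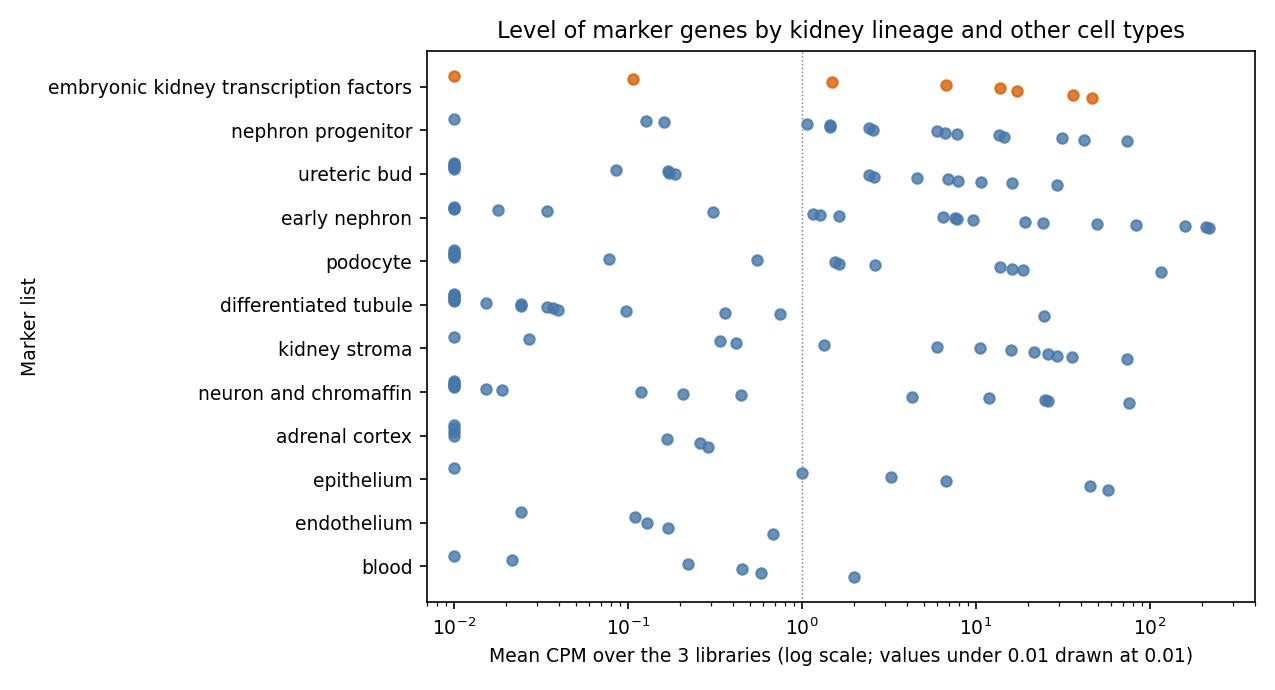
Mean CPM over the 3 libraries (x axis, log scale, values under 0.01 drawn at 0.01) of each gene of the marker lists (rows), 1 point per gene, with the 8 factors in orange at the top and a dotted line at 1 CPM. Reaching 1 CPM in any library were 13 of 16 nephron progenitor markers, 1 of 16 tubule markers and 0 of 7 adrenal cortex markers.

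No marker of these lists passed edgeR over all genes in either direction. Among those at an unadjusted p under 0.05 were MEOX1 of the nephron progenitor list (log2 fold change -0.83), ETV5 of the ureteric bud list (1.64), CYP17A1 of the adrenal list (-1.37), and HBB (-3.11) and CD14 (1.31) of the blood list, beside the neuronal genes above. MEOX1, a homeobox factor, was at 2.25 and 1.83 CPM with the hairpins, against 3.64 CPM in the control. HBB, a globin gene that marks red cells, had 8 and 4 counts with the hairpins, against 75 in the control (edgeR adjusted p = 0.842). The median log2 fold change was 0.14 for the nephron progenitor list, 0.17 for the ureteric bud list, 0.15 for the early nephron list, 0.00 for the podocyte list, 0.13 for the stroma list, 0.07 for the tubule list, 0.35 for the neuronal list and 0.04 for the epithelial list. It was -0.13 for the target list, -0.48 for the adrenal cortex list, -0.49 for the blood list and -0.20 for the endothelial list. Over all genes tested it was 0.01. The adrenal cortex, blood and endothelial medians rest on only 3, 4 and 2 tested genes, and the tubule median on 3. No shift of a whole list can be read from so few genes. The summed level of the 8 factors was 117 and 130 CPM with hairpin 1 and hairpin 2, against 118 CPM in the control.

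Scaffold copies bear on several of the genes at 0. Of 208 genes in all lists, 13 had a copy on a scaffold, and 9 of those were at 0 on their chromosome, among them WNT9B, DLL1, CHGA and ACTN4, an actinin that most cells use. Of the 195 without a copy, 22 were at 0. A listing at 0 for a gene with a copy is therefore no measure of its expression. PAX8 and the other members apart from LHX1 had no copy in the table.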

How the data were processed

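Poly(A)-selected RNA of 3 HEK293T libraries was sequenced as 100 bp paired-end reads. The authors deposited raw read counts per gene model, not normalized. The submitters' processing notes name STAR 2.7.3a, DESeq2 1.26 and GRCh38 (hg38). Which program counted reads, with which strand setting and annotation, is not given in the sources used here. Rows were all kept for the fit (60609 on chromosomes, 6399 on scaffolds), and the members are the rows on chromosomes with the 8 symbols. The members and gene lists were chosen with earlier results of these data known.

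Counts were filtered with filterByExpr (minimum count 10), scaled by TMM and tested with edgeR 4.0.16 (glmQLFit with legacy = FALSE, glmQLFTest, R 4.3.3), adjusted by Benjamini-Hochberg at 0.05 over all genes. SE is the absolute log2 fold change over the square root of F. Ratios of single libraries used a prior count of 2, and their exact 95% intervals and the floor of 3 counts cover counting error only. Read duplicates carry no molecular identifiers. The fit was also run on simulated counts in which both hairpins had the same effect, unlike 2 different hairpins, and the outcome is not reported here. Transcript lengths came from GENCODE 29, matched by gene ID for 8 of 8 members (4 with the same coordinates as the deposited models), and promoters from RefSeq, for 5 of 8. Named genes are the members, the 4 highest by mean CPM in each list, defining markers fixed by name, and genes overlapping a member or starting within 5 kb of it. Genes at an unadjusted p under 0.05, genes at 0 and other single genes outside this rule were named after their values were seen. Alternatives were DESeq2 size factors, library totals, no filter, DESeq2 1.42.0, limma-voom 3.58.1, the legacy fit, other limits of fold, CPM and prior count, and leaving out each hairpin. Summed scaffold copies and exon-union lengths were added after the data were seen. Results for some listed genes are not reported here.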

Additional observations from a re-analysis of the deposited data

Results flagged for a closer look

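A row outside the rule for the members held signal above the level in the control. The scaffold copy of LHX1 was at 0.514 and 0.809 CPM with hairpin 1 and hairpin 2, against 0.322 CPM in the control. Relative to the control the log2 ratio of this copy was 0.60 for hairpin 1 (95% counting interval -0.35 to 1.71) and 1.21 for hairpin 2 (0.42 to 2.28), and its log2 fold change of 1.03 did not pass edgeR (adjusted p = 0.999).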

How the results depend on the processing

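The 6 tested factors kept the sign of their log2 fold change, and none was called, with DESeq2 size factors or library totals in edgeR, no filter on low counts, DESeq2, limma-voom, the legacy quasi-likelihood fit or summed scaffold copies. Over those 7 settings the log2 fold change ranged from 0.19 to 0.22 for EYA1, 0.13 to 0.15 for SIX2, 0.30 to 0.33 for PAX2, 0.06 to 0.08 for WT1, -0.09 to -0.07 for SALL1 and -0.07 to -0.04 for GATA3, with adjusted p-values from 0.635 to 1.00. Leaving out 1 hairpin leaves 1 library against 1 and a value with no test. The ratio without 1 hairpin ranged from -0.07 to 0.35 for SIX2, -0.03 to 0.43 for EYA1, -0.14 to 0.00 for SALL1, -0.16 to 0.07 for GATA3, 0.22 to 0.41 for PAX2 and 0.03 to 0.13 for WT1. The sign for SIX2, EYA1 and GATA3 thus depended on which hairpin library was kept, and SALL1 was at 0.00 with hairpin 1 alone. Genes called over the whole table numbered 2 in the planned fit, 0 with DESeq2 size factors, 7 with library totals, 0 with no filter, 3 with DESeq2, 1 with limma-voom and 1 with the legacy fit and 2 with scaffold copies summed; the cause was not tested. Genes past the fold limit with both hairpins numbered 184 at 1.5-fold, 27 at 2-fold and 36 at a minimum of 5 CPM. Between the hairpins they numbered 919, 159 and 359. The minimum of 5 CPM kept 10995 genes, against 14099 at 1 CPM, and the reason for the lower numbers was not tested. No member was past the fold limit under any setting. With exon-union lengths, added after the data were seen, 2 ranks in the order per kilobase differed in each library. No paired analysis was possible because the control is 1 library and the labels give no pairing with the hairpins. On their chromosomes PAX8, LHX1 and PAX2 had at most 67 counts in a library, which limits what can be read from them. For LHX1 most counts lay on the scaffold row, and the part of depth was not tested.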
